A study of Mus musculus with 12 samples.

Results

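The genes described here are 10 core clock and clock output genes, named by symbol: *Arntl*, *Clock*, *Npas2*, *Per1*, *Per2*, *Per3*, *Cry1*, *Nr1d1*, *Nr1d2* and *Dbp*. They were taken by exact match of the symbol in the deposited expression values, and 9 of the 10 were found among 17007 listed genes. The match used no measured level, but the genes were chosen with earlier results of these data known. *Npas2* was not analysed here. RNA was sequenced from 12 libraries in 4 groups of 3: normal livers, taken from C57BL/6 wild-type animals, and *Rictor KO Tsc2 KO* liver tumors driven by c-MYC and MCL1, from mice given vehicle, MLN0128 or everolimus. Hosts of all 3 tumor groups carried floxed alleles of both genes (*Rictor fl/fl* and *Tsc2 fl/fl*, strain C57BL/6J), and plasmids for the oncogenes and for Cre under the CMV promoter were pushed into hepatocytes by hydrodynamic tail vein injection, so the tumors lack *Rictor* and *Tsc2* in cells that took up Cre and carry c-MYC and MCL1 from plasmids. MLN0128, which blocks the kinase of both mTORC1 and mTORC2, everolimus, a rapamycin analog acting on mTORC1, or vehicle was given by gavage at 1 mg/kg per day for each drug. How long the sequenced tumors were exposed is not settled: the sample labels give 6 days a week over 3 weeks from 6 days after injection, with the mice killed 3.7 weeks after injection, but the text on the sequencing experiment gives 3 days of drug. The hour of tissue collection, the lighting schedule, and the mice's ages are not given in the sources used here.

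The circadian clock is a feedback loop of transcription and translation. ARNTL (also called BMAL1) pairs with CLOCK or NPAS2 and activates genes that carry E-boxes, among them the *Per* and *Cry* genes, whose proteins return to repress the pair, and the *Nr1d* genes, whose proteins REV-ERBα and REV-ERBβ repress *Arntl*. DBP, a transcription factor that binds D-boxes, is a direct output of the loop, and in mouse liver its RNA has one of the widest daily swings known. In healthy mouse liver *Arntl*, *Clock*, *Npas2* and *Cry1* RNA are highest in the late night to early day, and *Nr1d1*, *Nr1d2*, *Dbp* and the *Per* genes in the day to early night. A single collection of bulk tissue cannot separate a shift in the hour of the clock from a change in level, and cannot tell fewer cells of a type from less RNA per cell.

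In the GENCODE annotation of GRCm38, *Arntl* lies at chr7:113207465-113314126 and *Dbp* at chr7:45705088-45710203, *Nr1d1* at chr11:98767932-98775333 and *Per1* at chr11:69095217-69109960, *Clock* at chr5:76209868-76304792, *Per2* at chr1:91415982-91459324, *Per3* at chr4:151003652-151044665, *Cry1* at chr10:85131700-85185064 and *Nr1d2* at chr14:18204054-18239127. Exons of *Dbp* share 539 of 2993 bases (18.0%) with *Sphk2*, which is read from the other strand. FPKM below stands for fragments per kilobase of exon after scaling for the size of the library. *Sphk2* stood at 5.08 to 6.57 FPKM in the normal livers and at 7.08 FPKM or more in the vehicle tumors. *Nr1d1* shares 263 of 3077 exon bases (8.55%) with *Thra* on the other strand. Whether reads were counted by strand is not given in the sources used here, so reads in these stretches may belong to either gene of a pair.

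The loop is written in short DNA words near the start sites of its own genes, and the stretches below are shown because they hold those words beside genes that moved in different ways. RefSeq promoter windows of GRCm38.p6, from 250 bases before to 50 after an annotated start, were found for 8 of the 9 genes (12 windows); *Per2* had none. They were searched on both strands for the E-box CACGTG, its variant CACGTT, the D-box TTATGTAA and the core of the REV-ERB and ROR site, TAGGTCA. The matches found do not overlap one another. Capitals mark a match, read 5′ to 3′ on the strand of the gene.
*Per3*, chr4:151044813-151044872, minus strand: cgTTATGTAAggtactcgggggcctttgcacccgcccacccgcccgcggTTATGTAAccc
*Nr1d1*, chr11:98775378-98775432, minus strand: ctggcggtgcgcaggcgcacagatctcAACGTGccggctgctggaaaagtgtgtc
*Per1*, chr11:69098756-69098815, plus strand: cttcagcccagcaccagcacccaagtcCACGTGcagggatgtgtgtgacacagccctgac
*Cry1*, chr10:85185091-85185150, minus strand: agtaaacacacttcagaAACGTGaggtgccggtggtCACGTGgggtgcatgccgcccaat
*Arntl*, chr7:113207530-113207559, plus strand: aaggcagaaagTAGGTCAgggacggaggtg
The *Per3* stretch holds 2 copies of the D-box, 205 and 158 bases before the start, a word present in 0.938% of all 32851 promoter windows. *Cry1* carries an E-box at 60 bases and the CACGTT variant, as its reverse complement, at 79 bases before the start, *Per1* an E-box at 166 bases before it, and *Nr1d1* the variant at 28 bases before it. The E-box is in 7.15% of all windows and the variant in 4.68%. TAGGTCA, in 2.61% of all windows, begins 30 bases after the start of 1 *Arntl* window. No other match was found in the members' windows, and these are matches of letters and not tested sites.

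Depth was similar in all libraries, with 17166483 to 25183775 reads recovered from the FPKM. The authors' FPKM carry a scaling between libraries beyond their totals, with factors of 0.585 to 0.595 for normal livers but 1.10 to 1.37 for tumors. *Rictor* stood at 1.65 to 2.57 FPKM in normal liver, 1.05 to 1.5 in vehicle tumors and 1.58 to 2.21 in drug-treated tumors, and *Tsc2* at 4.50 to 5.32, 2.01 to 2.31 and 2.78 to 3.96 FPKM in the same order, values for whole genes in bulk tissue that do not test a deletion. MLN0128 replicates 1 and 2 held 191 and 155 FPKM of *Xist*, the RNA of the inactive X chromosome, and 0 FPKM of 4 Y-linked genes, unlike the other 10 libraries, and so the calls with MLN0128 are also given without them. Summed FPKM of 6 hepatocyte markers reached 77684 to 96507 in the normal livers but only 3829 to 5898 in vehicle tumors, 1815 to 4044 in MLN0128 tumors and 3072 to 7807 in everolimus tumors, the last value being that of replicate 2. The corresponding sums for 4 macrophage markers were 98.5 to 111, 35.7 to 56.4, 14.0 to 23.7 and 18.2 to 52.2, and for 4 cholangiocyte markers 1.5 to 2.01, 17.0 to 52.5, 0.743 to 3.55 and 0.937 to 4.28. Endothelial markers summed to 20.4 to 26.6 FPKM in the normal livers against 8.58 to 14.3 over all tumors, stellate cell markers to 54.7 to 78.0 against 13.2 to 31.7, and erythroid markers to 246.8 to 502.1 against 11.003 to 81.7. The macrophage and stellate sums hide markers that moved apart. *Cd68*, a macrophage marker, stood at 4.8 to 5.75 FPKM in the normal livers but at 24.6 to 36.8 in vehicle tumors. *Col1a1*, a stellate marker, stood at 0.48 to 1.35 and 8.82 to 20.2 FPKM in the same order. The other 3 markers of each list were lower in vehicle tumors. In the normal livers the hepatocyte sum was mostly *Alb*, at 57200 to 76600 FPKM beside 953 to 1840 in vehicle tumors. *Hnf4a* fell less, from 199 to 239 FPKM to 91.4 to 113, as did *Cps1*, from 633 to 848 to 269 to 339. *Cdh5*, an endothelial marker, overlapped, at 5.34 to 7.88 FPKM in the normal livers and 4.1 to 6.05 in vehicle tumors. Lymphocyte markers stayed at 0.632 to 1.93 FPKM and neutrophil markers at 0.270 to 16.1 over all libraries, and the single marker listed at 0 was *S100a8*, in MLN0128 replicate 1.

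**Figure D1:**
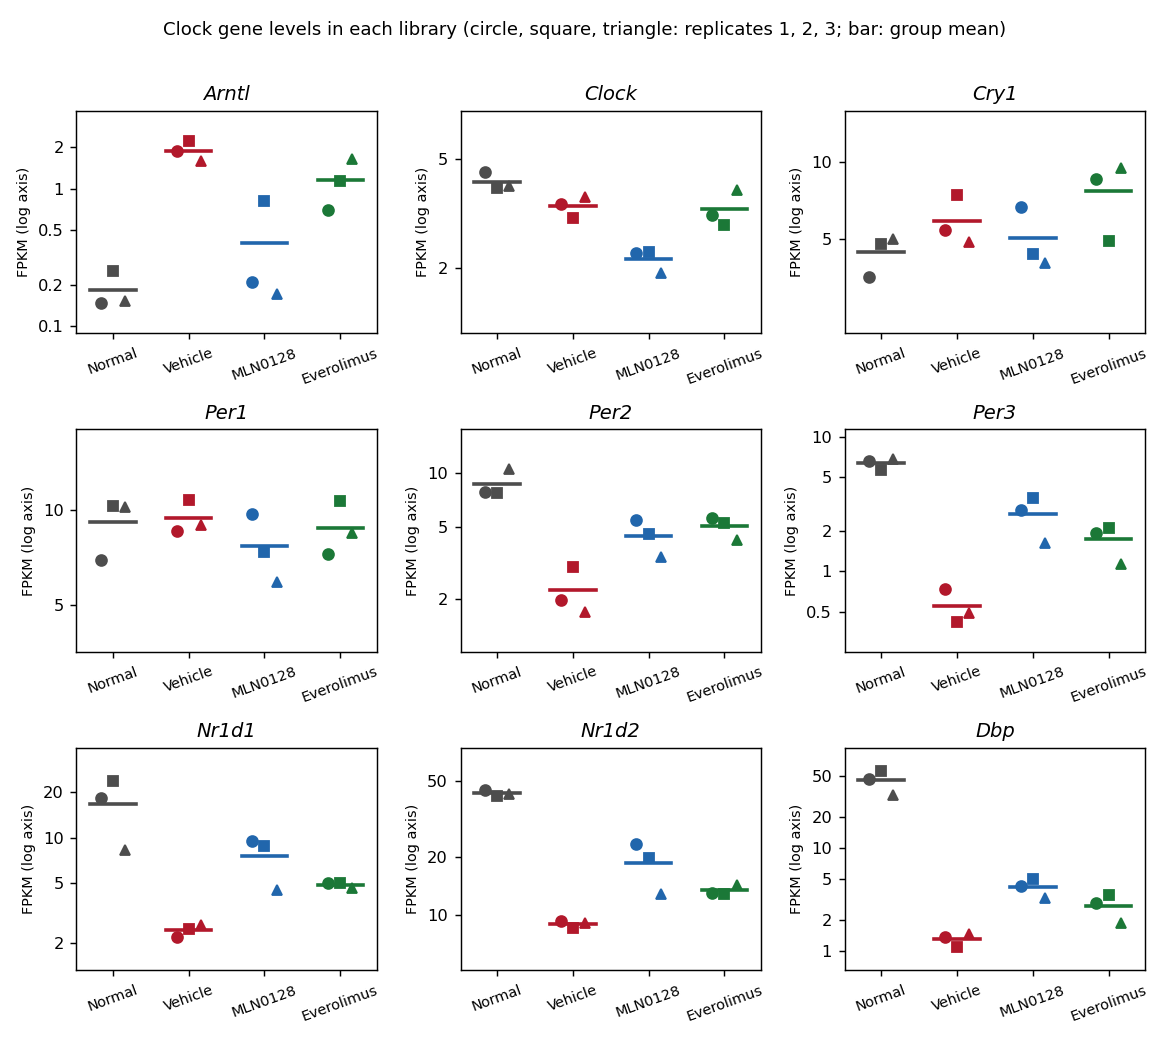
FPKM (log axis) of the 9 clock genes in each of the 12 libraries, by group; circles, squares and triangles are replicates 1, 2 and 3 and bars are group means. *Dbp*, *Nr1d1*, *Nr1d2*, *Per2* and *Per3* were highest in normal liver and lowest with vehicle, *Arntl* ran the other way, and *Per1* and *Cry1* overlapped between normal liver and vehicle.

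The first question was how the clock of a tumor under vehicle stood beside that of a normal liver. *Dbp*, *Nr1d1*, *Nr1d2*, *Per2* and *Per3* were lower in vehicle-treated tumors and *Arntl* was higher, while *Clock*, *Cry1* and *Per1* did not pass the test. The test was limma's treat, which asks whether a difference on the log2(FPKM + 1) scale exceeds a 1.5-fold change, with Benjamini-Hochberg adjustment over 14397 tested genes. All 9 clock genes passed the filter on low values, which asked for 0.5 FPKM or more in at least 3 libraries. *Arntl*, at 0.148 to 0.253 FPKM in the normal livers, passed it only through tumor libraries. By treat 5 of the 9 clock genes fell and 1 rose. Over all tested genes 16.9% fell and 15.9% rose. The moderated limma test, which has no fold threshold and is less strict, called the same 6 genes, and called 33.0% of all genes lower and 36.0% higher. The median log2 fold change was -1.60 over the 9 genes and 0.06 over all genes. With 3 libraries a group, the exact two-sided permutation test cannot give a p below 0.1, and it gave that value for the 7 members whose groups did not overlap, 6 lower (35.1% of all genes) and 1 higher (39.0% of all genes).

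*Dbp* had 47.4, 56.4 and 32.6 FPKM in the normal livers and 1.37, 1.09 and 1.48 FPKM in the vehicle tumors. The lowest normal liver was thus far above the highest tumor, and the group means of 45.5 ± 12.02 and 1.31 ± 0.201 FPKM (SD, n = 3) differed 34.6-fold. Its log2 fold change was -4.30 ± 0.216 (SE; limma treat, adjusted p = 7.64e-08). *Sphk2*, which overlaps it on the other strand, stood above *Dbp* in every vehicle tumor, and its part in those low *Dbp* values was not tested.

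The *Nr1d* genes encode the heme-binding repressors of *Arntl*. *Nr1d1* had 18.2, 23.6 and 8.28 FPKM in the normal livers and 2.21, 2.5 and 2.64 FPKM in the vehicle tumors. *Nr1d2* had 44.6, 41.5 and 42.8 FPKM in the normal livers and 9.21, 8.53 and 9.03 FPKM in the vehicle tumors. Neither gene's groups overlapped, but the normal livers spread widely for *Nr1d1*, with replicate 3 lowest there as it was for *Dbp*, and narrowly for *Nr1d2*. Log2 fold changes were -2.25 ± 0.315 for *Nr1d1* (SE; limma treat, adjusted p = 0.000642) and -2.15 ± 0.168 for *Nr1d2* (adjusted p = 8.57e-06).

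The 3 *Per* genes, which encode repressors of the ARNTL pair, parted from each other. *Per3* had 6.56, 5.70 and 6.81 FPKM in the normal livers and 0.738, 0.420 and 0.491 FPKM in the vehicle tumors, an 11.6-fold difference of means with no overlap. *Per2* had 7.87, 7.77 and 10.5 FPKM in the normal livers and 1.98, 3.02 and 1.69 FPKM in the vehicle tumors, a 3.91-fold difference, also with no overlap. *Per1*, the member most quickly induced by hormones and other signals, had 6.97, 10.3 and 10.2 FPKM in the normal livers and 8.59, 10.8 and 8.96 FPKM in the vehicle tumors, so the groups covered the same range. On the log2 scale *Per3* fell by 2.25 ± 0.199 (SE; limma treat, adjusted p = 1.92e-05) and *Per2* fell by 1.60 ± 0.190 (adjusted p = 0.00059), whereas the difference for *Per1* was 0.05 with a 95% confidence interval from -0.37 to 0.48.

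On the activating side, *Arntl* had 0.148, 0.253 and 0.153 FPKM in the normal livers and 1.88, 2.2 and 1.59 FPKM in the vehicle tumors. The normal liver values rest on 12, 21 and 12 recovered reads and those with vehicle on 303, 349 and 279. The groups did not overlap, the means differed 10.2-fold, and the log2 fold change, which the added 1 FPKM makes smaller for a gene this low, was 1.28 ± 0.189 (SE; limma treat, adjusted p = 0.00649). *Clock*, which encodes the partner of ARNTL, had 4.49, 3.92 and 3.97 FPKM in the normal livers and 3.43, 3.05 and 3.63 FPKM in the vehicle tumors. Its groups did not overlap either, but the log2 difference of -0.23 (95% confidence interval -0.48 to 0.02) passed neither test. *Cry1*, a repressor that peaks late in the cycle, had 3.55, 4.78 and 4.96 FPKM in the normal livers and 5.41, 7.40 and 4.83 FPKM in the vehicle tumors, groups that overlapped, with a log2 difference of 0.33 (-0.19 to 0.85). The median over all genes moved to 0.80 when FPKM sums were made equal and to 0.62 with plain library totals, and the log2 difference of *Clock* then became 0.69 and 0.48, that of *Per1* 1.11 and 0.88 and that of *Cry1* 1.29 and 1.07. Relative to those medians *Clock* stayed below by 0.11 and 0.14, and each of the 6 called genes kept its direction. *Per2* lost the treat call under both scalings (log2 fold change -0.62, adjusted p = 0.64, and -0.82, adjusted p = 0.224) and *Nr1d1* with equal sums (-1.22, adjusted p = 0.0592), while *Per1* (adjusted p = 0.0428) and *Cry1* (adjusted p = 0.00933) passed limma's treat with equal sums.

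**Figure D2:**
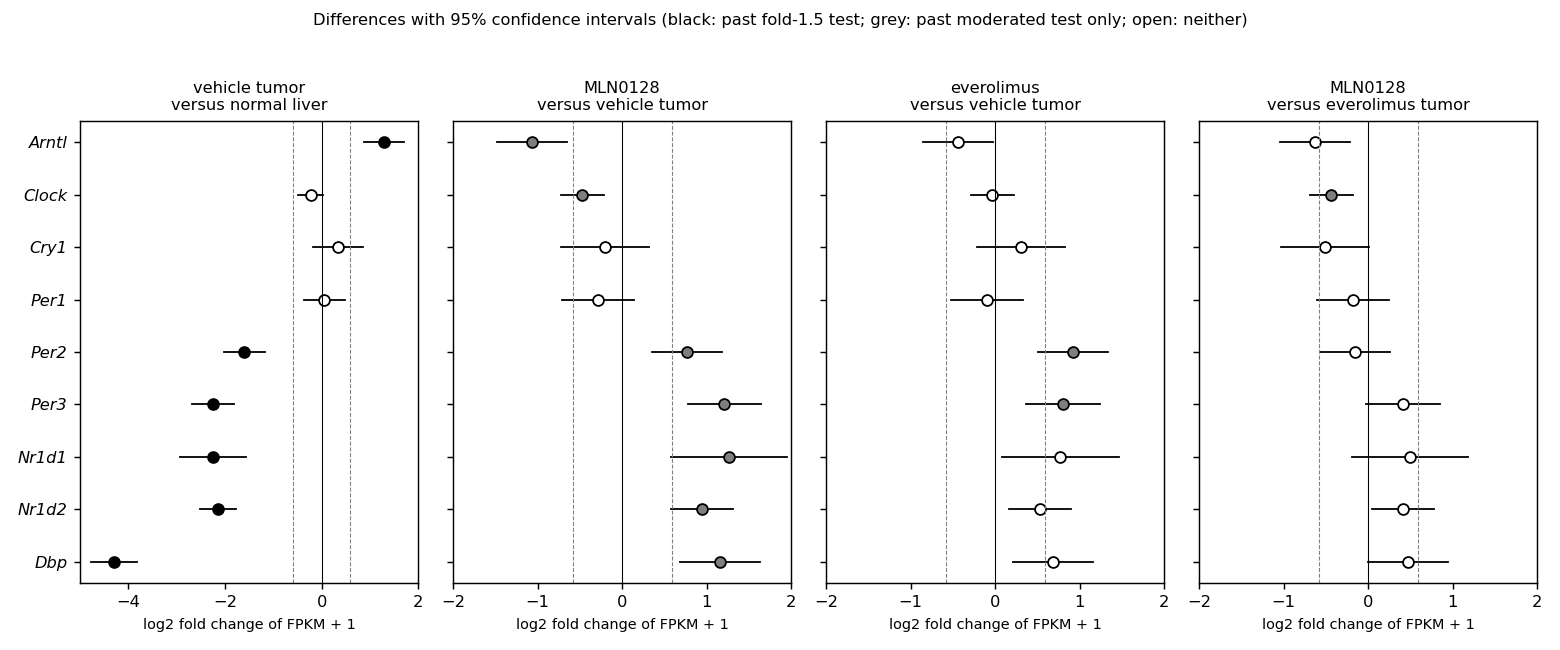
Log2 fold change of FPKM + 1 for each clock gene in the 4 comparisons, with 95% confidence intervals from limma; dashed lines mark a 1.5-fold change. In the first panel 6 genes passed the test against a 1.5-fold change (black); with MLN0128 against vehicle 7 passed the moderated test only (grey), with everolimus 2, and between the drugs *Clock* alone.

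The second comparison asked what MLN0128 did to these genes in the tumor. *Dbp*, *Nr1d1*, *Nr1d2*, *Per2* and *Per3* were higher than with vehicle and *Arntl* and *Clock* were lower by the moderated test, and none of the 7 passed treat. Thus 0 of the 9 were called by limma's treat, 5 had an unadjusted treat p under 0.05, and treat after voom on the recovered reads called 2, *Arntl* and *Per3*. Treat called 0.479% of all genes higher and 1.65% lower. By the moderated test 5 of the 9 rose and 2 fell, and of all genes 14.9% rose and 17.1% fell. The median log2 fold change was 0.77 over the 9 genes and -0.01 over all genes. The same 7 genes had MLN0128 groups that did not overlap with vehicle, as did 22.1% of all genes in the higher and 23.4% in the lower direction.

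*Arntl* had 0.211, 0.817 and 0.172 FPKM with MLN0128. Replicates 1 and 3 lay inside the range of the normal livers, and replicate 2 lay between normal liver and vehicle. Its log2 fold change against vehicle was -1.07 ± 0.189 (SE; moderated limma test, adjusted p = 0.00177). *Clock* had 2.26, 2.28 and 1.92 FPKM, below all 9 libraries of the other groups, with a log2 fold change of -0.47 ± 0.116 (adjusted p = 0.0101).

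Among the genes that were low in tumors, *Nr1d1* had 9.47, 8.78 and 4.54 FPKM with MLN0128, *Nr1d2* 23.3, 19.8 and 12.8, and *Dbp* 4.28, 5.08 and 3.28. *Per3* had 2.86, 3.50 and 1.62 FPKM and *Per2* 5.48, 4.57 and 3.40. For all 5 genes every MLN0128 library was above every vehicle library, and replicate 3 was the lowest of its group. Log2 fold changes against vehicle were 1.26 ± 0.315 (SE) for *Nr1d1*, 0.95 ± 0.168 for *Nr1d2*, 1.16 ± 0.216 for *Dbp*, 1.21 ± 0.199 for *Per3* and 0.77 ± 0.190 for *Per2*, with adjusted p of 0.0105, 0.00185, 0.00229, 0.00123 and 0.0102 by the moderated limma test. *Thra*, the antisense neighbor of *Nr1d1*, was at 6.05 to 7.34 FPKM with MLN0128 and 1.82 to 2.67 FPKM with vehicle, and its part in the higher *Nr1d1* values was not tested. *Per1* had 9.72, 7.39 and 5.95 FPKM and *Cry1* 6.66, 4.34 and 4.02 FPKM, both overlapping with vehicle, with log2 differences of -0.28 (95% confidence interval -0.71 to 0.14) and -0.20 (-0.72 to 0.32). Of the 6 hepatocyte markers 2 were lower with MLN0128 by the moderated test, 0 were higher and 4 were not called. Their median log2 difference was -0.60. The part of hepatocyte content in the clock gene values was not tested.

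When MLN0128 replicates 1 and 2, the libraries with *Xist*, were left out, replicate 3 alone stood for the group and was assumed to vary as the other groups do. The moderated test then called *Arntl* (log2 fold change -1.30, adjusted p = 0.0101) and *Nr1d2* (0.48, adjusted p = 0.0442). The other 5 genes kept their direction, at 0.76 for *Per3*, 0.89 for *Dbp*, 0.69 for *Nr1d1*, 0.47 for *Per2* and -0.58 for *Clock*, with adjusted p of 0.0526, 0.0837, 0.297, 0.249 and 0.0536. Without replicate 3, on the other hand, *Per3* (1.43, adjusted p = 0.0173) and *Nr1d2* (1.18, adjusted p = 0.0102) passed treat.

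The third comparison put everolimus beside vehicle, and shares the vehicle libraries with the second. *Per2* and *Per3* were higher by the moderated test and no clock gene was lower. Of the 9 genes 0 were called by limma's treat, 0 had an unadjusted treat p under 0.05, and 0 were called by treat after voom. Treat called 0.0347% of all genes higher and 0.570% lower, and the moderated test 3.78% and 6.05%. The median log2 fold change was 0.53 over the 9 genes and 0.03 over all genes.

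*Per2* had 5.63, 5.30 and 4.22 FPKM with everolimus and *Per3* 1.92, 2.11 and 1.14. Each library was above every vehicle library, and the log2 fold changes were 0.92 ± 0.190 for *Per2* and 0.80 ± 0.199 for *Per3* (SE; moderated limma test, adjusted p = 0.0124 and 0.0291). *Nr1d1* had 5.02, 5.02 and 4.62 FPKM, *Nr1d2* 13.0, 12.8 and 14.3, and *Dbp* 2.92, 3.51 and 1.89. These 3 genes were also above vehicle in every library. Thus 5 of the 9 genes had no overlap in the higher direction, where 17.6% of all genes did (14.8% in the lower direction). But the log2 differences of *Nr1d1*, *Nr1d2* and *Dbp*, 0.77, 0.53 and 0.69, had adjusted p of 0.142, 0.0659 and 0.0658 by the moderated limma test. *Thra* was at 3.97 to 4.53 FPKM with everolimus and 1.82 to 2.67 with vehicle, and its part in the *Nr1d1* values was not tested. *Arntl* had 0.704, 1.13 and 1.65 FPKM, with replicate 3 inside the range of vehicle, and a log2 difference of -0.44 (95% confidence interval -0.85 to -0.02; adjusted p = 0.164). *Clock* had 3.11, 2.86 and 3.85 FPKM, *Cry1* 8.59, 4.88 and 9.48 and *Per1* 7.25, 10.7 and 8.46, all overlapping with vehicle. The *Per2* and *Per3* calls were not stable to the libraries used: without vehicle replicate 3 neither passed the moderated test (adjusted p = 0.0616 and 0.101), and without everolimus replicate 1 neither did (0.0591 and 0.11). *Per3* alone was also lost without vehicle replicate 1 (0.0523), vehicle replicate 2 (0.0719) or everolimus replicate 2 (0.0673).

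Placing each drug library on a scale where the vehicle mean is 0% and the normal liver mean 100%, in log2(FPKM + 1), showed where each of the 6 genes stood within its own gap. With MLN0128 the range over libraries was 51.8% to 101% for *Arntl*, 30.5% to 71.3% for *Nr1d1*, 33.9% to 68.6% for *Per3*, 29.2% to 64.2% for *Per2*, 22.2% to 60.2% for *Nr1d2* and 20.7% to 32.5% for *Dbp*. With everolimus it was 44.7% to 66.3% for *Per2*, 20.9% to 44.9% for *Per3*, 9.33% to 59.0% for *Arntl*, 31.4% to 35.8% for *Nr1d1*, 22.2% to 29.1% for *Nr1d2* and 7.56% to 22.5% for *Dbp*. On this scale *Dbp*, whose gap was the widest (log2 fold change -4.30 in vehicle tumors), had the lowest mean percentage of the 6 under both drugs. Its log2 difference from vehicle was not the smallest: with MLN0128 it was 1.16, beside 0.95 for *Nr1d2* and 0.77 for *Per2*, but 1.26 for *Nr1d1* and 1.21 for *Per3*. *Arntl* was nearest to normal liver under MLN0128 and *Per2* under everolimus, though their ranges overlap those of other genes.

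Against normal liver itself, MLN0128 tumors were lower with no overlap for *Clock*, *Per2*, *Per3*, *Nr1d2* and *Dbp*, 5 of 9 genes, where 36.3% of all genes were lower and 38.8% higher in this way. *Nr1d1* overlapped, because normal liver replicate 3 (8.28 FPKM) lay below MLN0128 replicates 1 and 2. Everolimus tumors were lower with no overlap for the same 5 genes and *Nr1d1*, 6 of 9, and higher for *Arntl*, where 35.4% of all genes were lower and 38.5% higher.

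**Figure D3:**
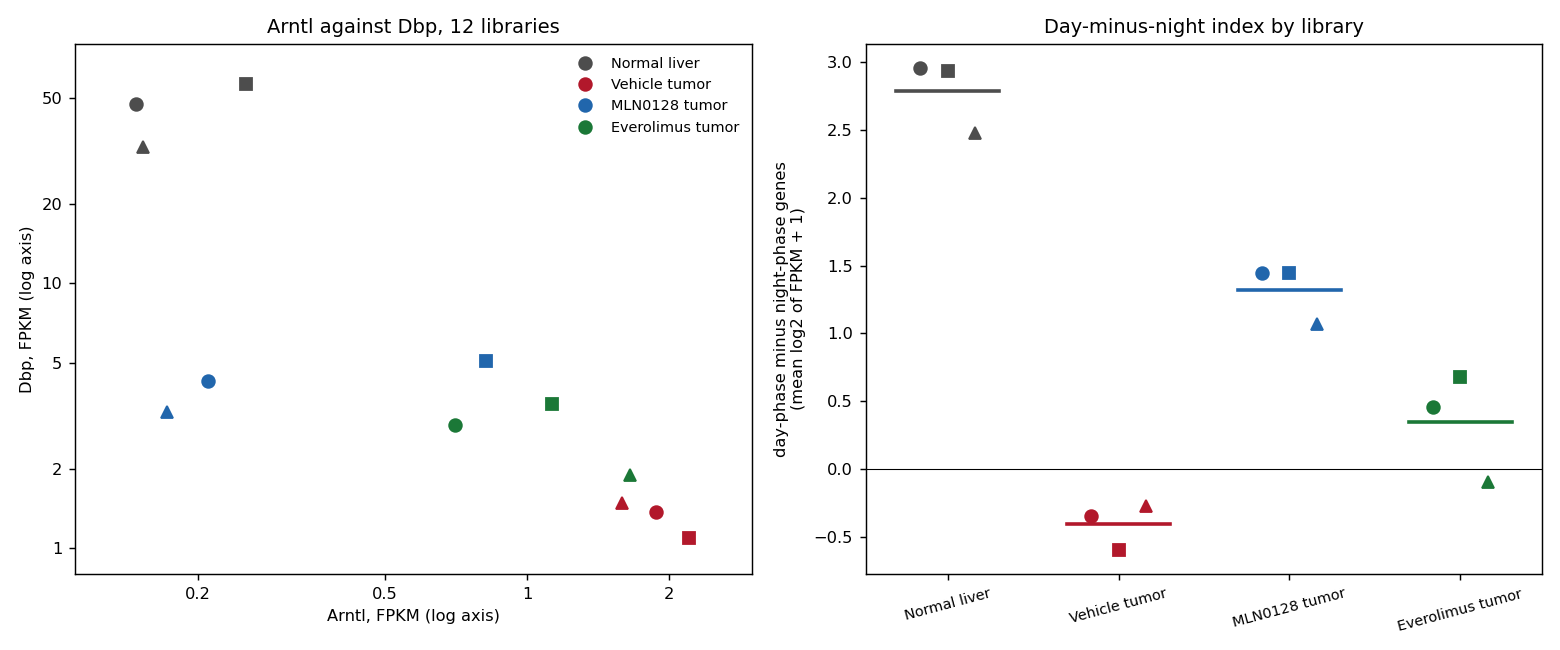
Left, *Arntl* against *Dbp* in each library (FPKM, both axes log); right, the day-minus-night index of each library, with group means as bars. Vehicle tumors sit at high *Arntl* and low *Dbp* and normal livers at the opposite corner, and the index runs from -0.60 to -0.27 with vehicle and from 2.48 to 2.96 in normal liver.

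As a description of the phase-like pattern, an index was formed for each library as the mean log2(FPKM + 1) of *Nr1d1*, *Nr1d2*, *Dbp* and *Per3* minus that of *Arntl*, *Clock* and *Cry1*. It was 2.96, 2.94 and 2.48 in the normal livers and -0.35, -0.60 and -0.27 in the vehicle tumors. MLN0128 tumors had 1.45, 1.45 and 1.07, and everolimus tumors 0.46, 0.68 and -0.09. The 4 groups did not overlap and stood in the order normal liver, MLN0128, everolimus and vehicle. The order follows the genes named above and is not a separate result, and MLN0128 replicate 3 and everolimus replicate 3 were each the library of their group closest to vehicle. In the plot of *Arntl* against *Dbp*, MLN0128 replicates 1 and 3 had the *Arntl* level of normal liver with less than 5 FPKM of *Dbp*, a pair of levels found in no normal liver and no vehicle tumor.

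Within the groups the members did not keep the opposite course of the day and night genes. After subtraction of each group mean, *Arntl* and *Dbp* had r = 0.02 and rho = 0.16 over the 12 libraries, and of 18 pairs that join a day gene to a night gene 12 had a positive r and 6 a negative r, with a median of 0.08. Pairs from the same phase had a median r of 0.29, and 16 of 18 were positive. *Nr1d1* and *Dbp* were the most alike (r = 0.80, rho = 0.74, and r = 0.58 without the 2 libraries farthest from the median), followed by *Per1* and *Per2* (r = 0.59, rho = 0.59) and, across phases, *Clock* and *Nr1d2* (r = 0.58, rho = 0.85). *Dbp* and *Cry1* went apart most (r = -0.42, rho = -0.50). Libraries share their depth and tissue make-up, and these correlations are given as descriptions. Among 11816 genes with a mean of at least 1 FPKM, those whose deviations were most like *Arntl* were *Zfp956* (r = 0.95), *Ube2d3* (0.93), *Epb41l5* (0.91), *Gosr2* (0.90) and *Defb1* (0.90), and those most unlike it *Dagla* (-0.95), *Trim65* (-0.94), *Sspn* (-0.94), *Acap3* (-0.91) and *Mcf2l* (-0.90). For *Dbp* the most alike were *Slc30a10* (0.95), *Lcmt2* (0.94), *Borcs8* (0.94), *Mtfr1l* (0.94) and *Inhbc* (0.94), and the most unlike *Pik3c2b* (-0.96), *Pdcd7* (-0.94), *Rnf8* (-0.94), *Nfat5* (-0.93) and *Cybc1* (-0.93). No clock gene was in either set.

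**Figure D4:**
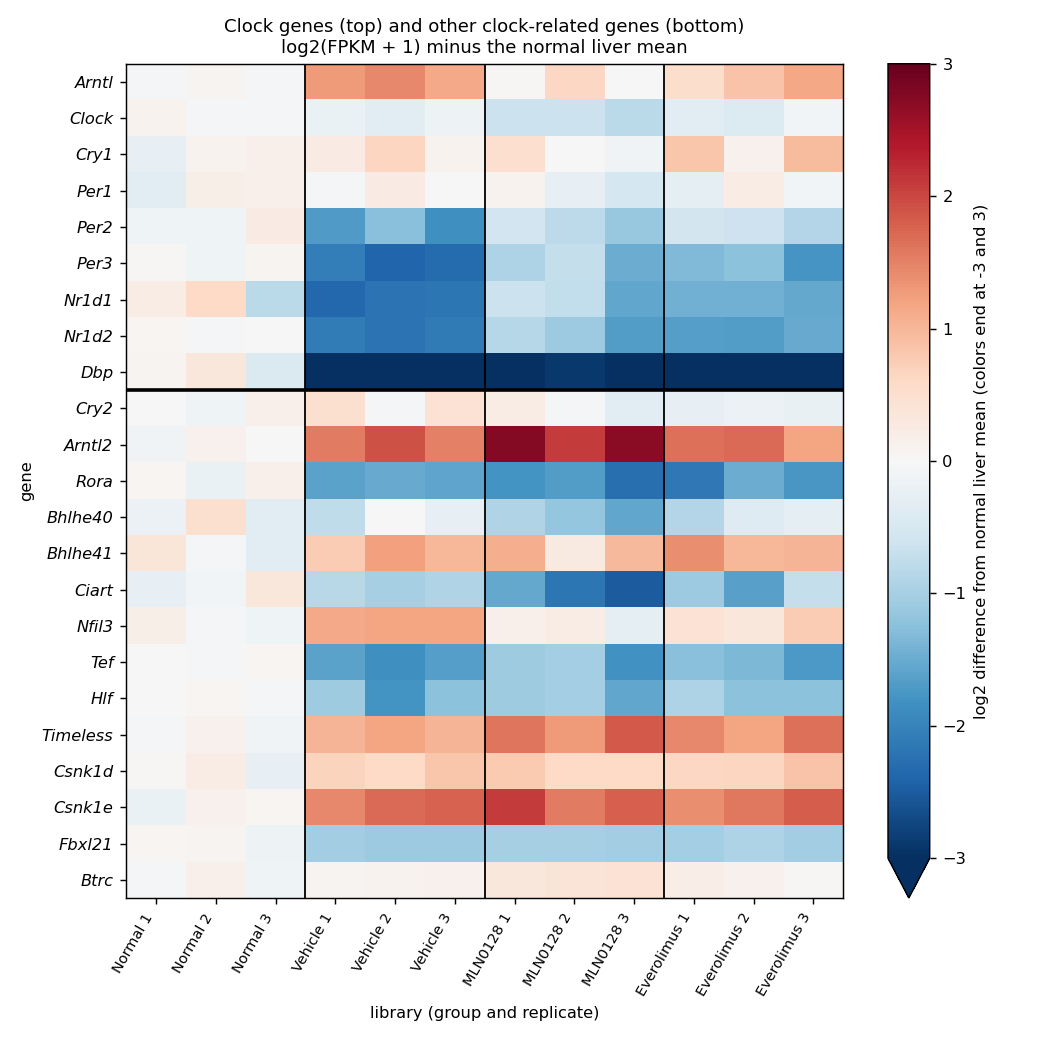
Log2(FPKM + 1) minus the normal liver mean for the 9 clock genes (above the line) and 14 other clock-related genes (below it) in each library; blue is below and red above normal liver, and colors end at -3 and 3. *Dbp* is below by about 3 or more in every tumor, and *Arntl2* is above normal liver in every tumor and highest with MLN0128. *Ciart* is lowest with MLN0128 by the group mean, though everolimus replicate 2 lies below MLN0128 replicate 1.

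Other genes of the clock were read from a list of 15, of which 14 were measured and tested. In vehicle tumors against normal liver treat called 4 higher and 4 lower, the moderated test called 6 and 5, and the median log2 fold change was 0.19. Over all genes treat called 15.9% higher and 16.9% lower, and the moderated test 36.0% and 33.0%. The most changed were *Tef*, a D-box activator related to *Dbp* (-1.70 ± 0.196), *Arntl2*, a relative of *Arntl* (1.65 ± 0.197), *Csnk1e*, a kinase of the PER proteins (1.63 ± 0.166), and *Rora*, an activator of *Arntl* (-1.56 ± 0.189; SE, limma treat, adjusted p from 0.000168 to 0.000736). *Arntl2*, at 0.0815 to 0.287 FPKM in the normal livers, passed the filter on low values only through tumor libraries. *Fbxl21*, among the 4 called lower, passed it only through the normal livers, at 0.959 to 1.3 FPKM. The added 1 FPKM weighs on both fold changes. With MLN0128 against vehicle the moderated test called 14.9% of all genes higher and 17.1% lower. Of the 14 none passed treat, 2 were higher and 3 lower by the moderated test, and the median was 0.01. Those 5 included *Ciart*, a repressor of the ARNTL pair (-1.15 ± 0.263), *Nfil3*, the repressor that competes for D-boxes (-1.14 ± 0.155), *Arntl2* (0.87 ± 0.197), and *Bhlhe40*, a repressor that binds E-boxes (-0.86 ± 0.261; SE, moderated limma test, adjusted p from 0.000483 to 0.026). Without MLN0128 replicates 1 and 2 the moderated test called 2 higher and 2 lower, *Bhlhe40* (-1.21, adjusted p = 0.0597) was the one of these 4 not called, and the median was -0.11. *Nfil3* had 9.14, 9.59 and 6.42 FPKM with MLN0128, near the 9.25, 7.83 and 7.38 FPKM of normal liver and below the 18.9, 19.8 and 19.7 FPKM of vehicle. *Ciart* did not go with *Dbp*, *Nr1d1*, *Nr1d2*, *Per2* and *Per3*, which were low in tumors and higher with MLN0128 by the moderated test. *Ciart* went from 10.4, 11.6 and 15.9 FPKM in the normal livers to 6.58, 5.75 and 6.19 in vehicle tumors. It went further down to 3.67, 2.01 and 1.39 in MLN0128 tumors. With equal FPKM sums, however, its difference between vehicle tumors and normal liver was 0.16. *Rora*, also low in vehicle tumors at 3.35 to 3.64 FPKM, had 2.78, 3.1 and 1.74 FPKM with MLN0128, a difference not called. *Arntl2* went against *Arntl* under MLN0128, at 6.84, 4.01 and 6.67 FPKM beside 2.42, 3.39 and 2.32 FPKM with vehicle. With everolimus against vehicle the moderated test called 3.78% of all genes higher and 6.05% lower. Of the 14 none passed treat, and the moderated limma test called 1 gene lower, *Nfil3* (-0.66 ± 0.155 SE, adjusted p = 0.0238), and 0 higher, with a median of -0.01. That call was lost in 6 of 22 alternatives, the replicate block and the fits without each vehicle library in turn or without everolimus replicate 1 or 2.

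Of 14 liver genes with a daily rhythm in healthy mice, treat called 1 higher and 9 lower in vehicle tumors, the moderated test called 2 and 11, and their median log2 fold change was -1.98. They included *Elovl3*, a fatty acid elongase (-6.33 ± 0.202), *Gys2*, the liver glycogen synthase (-4.90 ± 0.412), *Upp2*, a uridine phosphorylase (-3.92 ± 0.667), and *Alas1*, the first enzyme of heme synthesis (-3.68 ± 0.219; SE, limma treat, adjusted p from 1.63e-09 to 0.000998). In vehicle tumors *Elovl3* had 0 to 0.0318 FPKM. It passed the filter on low values only through the normal livers, so its fold change depends on the added 1 FPKM. Over all genes treat called 15.9% higher and 16.9% lower in vehicle tumors, the moderated test 36.0% and 33.0%, and the median was 0.06. By the moderated test 0 of the 14 were higher with either drug than with vehicle. Over all genes that test called 14.9% higher and 17.1% lower with MLN0128, and 3.78% and 6.05% with everolimus. Of the 14, 4 were lower with MLN0128 (*Cyp2a5*, *Tfrc*, *Noct* and *Alas1*), with a median of -0.34 over all 14. With everolimus 2 were lower (*Cyp2a5* and *Noct*), with a median of -0.30. These everolimus calls were lost in 5 of 22 alternatives for *Cyp2a5* and in 9 for *Noct*. The MLN0128 calls were lost in 6 of 23 alternatives for *Noct*, 5 for *Alas1*, 1 for *Cyp2a5* and 0 for *Tfrc*. Without MLN0128 replicates 1 and 2 the moderated limma test called 3 lower, *Cyp2a5*, *Tfrc* and *Por*, while *Noct* (-0.76, adjusted p = 0.242) and *Alas1* (-0.97, adjusted p = 0.079) were not called. Hepatocyte markers moved the same way between normal liver and vehicle tumor, with all 6 lower by the moderated test, and their part in these differences was not tested.

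Of 12 hormone- and stress-responsive genes, which share inputs with *Per1* and *Per2*, 4 were higher and 3 lower in vehicle tumors by treat. Of all genes that test called 15.9% higher and 16.9% lower. The list's median log2 fold change was 0.52, beside 0.06 over all genes. Under MLN0128 treat called 3 lower, *Sgk1*, a kinase induced by glucocorticoids (-3.41 ± 0.287), *Tat*, a tyrosine aminotransferase (-3.36 ± 0.468), and *Ddit4*, an inhibitor of mTORC1 (-2.21 ± 0.397; SE, adjusted p from 0.000274 to 0.0435), the moderated test 5, and neither test any higher, with a median of -0.95. The treat call of *Ddit4* was lost in 11 of 23 alternatives, among them the fits without vehicle replicate 1 (adjusted p = 0.147), 2 (0.0748) or 3 (0.139), without MLN0128 replicate 1 (0.143) or 2 (0.139), without normal liver replicate 2 (0.0639), and without everolimus replicate 1 (0.0511) or 2 (0.052). Without both MLN0128 replicates 1 and 2, treat called *Sgk1* (adjusted p = 0.0295) but neither *Tat* (0.105) nor *Ddit4* (0.651), and the moderated limma test called 3 of the 12 lower. With everolimus treat called *Sgk1* lower (-2.47 ± 0.287, adjusted p = 0.00559) and the moderated test also *Tat* (-2.07 ± 0.468, adjusted p = 0.0191), with a median of -0.53. The *Tat* call was lost in 4 of 22 alternatives and the treat call of *Sgk1* in 1. Over all genes treat called 0.479% higher and 1.65% lower with MLN0128, and 0.0347% and 0.570% with everolimus. For the moderated test these shares were 14.9% and 17.1% with MLN0128, and 3.78% and 6.05% with everolimus. *Per2* was higher under both drugs by the moderated test, and the log2 differences of *Per1* were -0.28 with MLN0128 and -0.10 with everolimus, neither past that test.

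The drugs were compared with each other directly, at the same daily dose. By limma's treat 0 of the 9 clock genes were called, none had an unadjusted treat p under 0.05, and treat after voom called 0, beside 0.00695% of all genes higher and 0.0347% lower with MLN0128. The moderated test called *Clock* lower with MLN0128 (-0.43 ± 0.116 SE, adjusted p = 0.0397), beside 3.99% of all genes higher and 5.54% lower. For the other 8 genes the difference was not shown, with 95% confidence intervals of -1.05 to -0.22 for *Arntl*, 0.04 to 0.78 for *Nr1d2*, 0.00 to 0.95 for *Dbp*, -0.20 to 1.18 for *Nr1d1*, -0.03 to 0.84 for *Per3*, -1.03 to 0.01 for *Cry1*, -0.61 to 0.24 for *Per1* and -0.57 to 0.26 for *Per2*. *Arntl*, with an adjusted p of 0.0566, was closest to the threshold among these. Without MLN0128 replicates 1 and 2 the differences of *Nr1d1*, *Nr1d2* and *Per3* changed sign, to -0.09, -0.06 and -0.04. In that setting *Clock* was at -0.54 (adjusted p = 0.137). The median log2 difference was -0.15 over the 9 genes and -0.03 over all genes.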

How the data were processed

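Total RNA of 12 mouse liver and liver tumor samples was sequenced, and the values used are the FPKM deposited by the authors, linear and rounded to 3 significant digits. Per the labels the build was GRCm38 and FastQC 0.11.7 was among the tools; the aligner is not given in the sources used here. In the study's own analysis, reads were counted per gene and differential expression was called from counts; no count test was run here as the main test because FPKM are not counts. In 22 rows the gene symbol reads as a date, and those rows were not renamed.

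Groups and replicate numbers came from the sample labels. Values were taken as log2(FPKM + 1), a gene entered the tests if 3 or more libraries had 0.5 FPKM or more of it, and all 12 libraries entered 1 model in limma 3.58.1 (R 4.3.3), whose prior variance followed the mean level. Calls were made by treat against a fold change of 1.5 at an adjusted p under 0.05, or, where said, by the moderated test. P-values of this model rest on the spread between mice within groups, estimated for each gene over all 4 groups together and moderated by that prior. They do not measure the spread of any 1 group. The fits were tested on simulated data. FPKM multiplied by exon length in GENCODE M21 fell within 0.1 of a whole read for 97.8% to 98.9% of values under 20 reads (20% by chance), which gave the recovered reads for voom. Promoters came from RefSeq. The members, gene lists and rules for naming genes were chosen with earlier results of these data known: all members are named, and of each other list the 4 genes with the largest change past the moderated test in a comparison. Values of *Sphk2* and *Thra* were added after the overlaps were seen. Lists are given as counts and medians, without a test. Some genes of the lists are not reported here and were left out of the counts. Alternatives were another pseudocount (0.1, 0.5), no filter, other scalings, voom and changes to the test, the libraries fitted, the prior variance, the replicate block and each library left out. A further one, without MLN0128 replicates 1 and 2, was chosen after seeing the data. Tables were handled with pandas 2.3.3 and exact tests run with scipy 1.17.1.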

Additional observations from a re-analysis of the deposited data

Results flagged for a closer look

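The moderated limma test of the difference between the drugs passed its threshold for 4 of the clock, rhythmic and hormone-responsive genes. Over all genes that test called 3.99% higher and 5.54% lower with MLN0128. *Clock* was lower with MLN0128 than with everolimus, by a log2 difference of -0.43. *Arntl2* was higher with MLN0128, by 1.01 (adjusted p = 0.0139). *Elovl6*, a fatty acid elongase with a daily rhythm in liver, was lower by -0.71 (adjusted p = 0.0199), and *Tfrc*, the transferrin receptor, by -1.04 (adjusted p = 0.0477). The *Tfrc* call was lost in 17 of 23 alternatives, that of *Elovl6* in 4 and that of *Arntl2* in 3. Without MLN0128 replicates 1 and 2 the log2 differences were -1.37 for *Tfrc*, -0.91 for *Elovl6* and 1.20 for *Arntl2*. Both erythroid markers tested were lower with MLN0128 as well, *Alas2* by -0.75 (adjusted p = 0.0137) and *Hbb-bs* by -1.95 (adjusted p = 0.0168), and their part in these differences was not tested. None of the 4 passed treat. Groups of 3 libraries were not tested for single outlying values.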

How the results depend on the processing

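Under each of 24 alternatives the count of clock genes called in vehicle tumor against normal liver stayed within 1.5 times of 6, with 6 to 6 when libraries were left out 1 at a time. *Per2* (-0.62 and -0.82) and *Nr1d1* (-1.22, equal sums only) lost the treat call with equal FPKM sums or plain library totals, and *Per1* and *Cry1* gained it with equal sums. For MLN0128 against vehicle the 0 genes called became 7 by the moderated test, 6 by that test with a fold above 1.5, 3 with a pseudocount of 0.1, 1 each with a pseudocount of 0.5, equal FPKM sums and plain library totals, and 2 with voom, and ran from 0 to 2 with libraries left out. For everolimus against vehicle the 0 became 2 by the moderated test with or without the fold, and stayed 0 to 0 with libraries left out. Between the drugs the 0 became 1 by the moderated test, and stayed 0 to 0 with libraries left out, but *Clock*, the gene behind that 1, passed the moderated test in 8 of 23 alternatives only. Calls by the moderated test ran from 7 to 7 for MLN0128, 0 to 4 for everolimus and 0 to 2 between the drugs with libraries left out. The causes were not tested. Opposite signs were found with equal FPKM sums for *Ciart* (0.16) and *Usp2* (0.30), and with plain library totals for *Usp2* (0.064), all in vehicle tumor against normal liver. No sign of pairing by replicate number was seen. Same-numbered libraries of different groups had correlations of their deviations from -0.29 to 0.15, beside -0.29 to 0.40 for libraries of unlike number. Deviations within a group of 3 depend on one another, so these ranges cannot exclude a pairing. A fit with the replicate block called 6 clock genes in vehicle tumor against normal liver by treat and 0 in each other comparison, and by the moderated test 3 rather than 2 for everolimus and 0 rather than 1 between the drugs. Depth limits *Arntl* most, with 12 to 21 reads in normal liver.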
